A study of Mus musculus with 8 samples.

Results

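The genes described here are the transforming growth factor beta (TGF-β) ligands Tgfb1, Tgfb2 and Tgfb3, their receptors Tgfbr1, Tgfbr2 and Tgfbr3, and the latent TGF-β binding proteins Ltbp1 and Ltbp2. They were found by symbol, and all 8 were among the 32285 genes of the count tables. Single-nucleus RNA sequencing (snRNA-seq) was done on the petrous temporal bone (PTB), the skull bone that encloses the inner ear, and on the paraflocculus/flocculus (PF/F), the cerebellar lobules that lie against it. Mice were P5.5 wild-type (WT) littermates and mice with 1 copy of Tbx1 (Tbx1+/-), with no other allele or agent named. The study states that its Tbx1+/- line was backcrossed to C57BL/6J. Each tissue had 2 WT and 2 Tbx1+/- libraries, and each library pooled 5 mice, so that the libraries and not the nuclei are the replicates. The frozen bone was pulverized whole before nuclei were taken from it.

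TGF-β ligands are secreted in a latent form, in which a propeptide stays bound to the ligand and is linked to a latent binding protein that anchors it to fibrillin-rich matrix. Integrins, proteases and osteoclastic resorption can release the ligand, which then brings together the type II receptor (Tgfbr2) and the type I receptor (Tgfbr1) to phosphorylate SMAD proteins. Betaglycan (Tgfbr3) is a co-receptor that presents the ligands, Tgfb2 above all, and Ltbp2 is a related matrix protein that is not known to carry the latent ligand. In bone the pathway is known for the coupling of resorption to formation, and in the brain for microglia and vessels.

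The levels below turn on the split between Tgfb1 and Tgfb2 among bone cells, on Tgfbr1 in osteoclasts and on Ltbp1 in connective tissue and matured osteoblasts, so the promoters of these genes are shown. In GRCm38 Tgfb1 (ENSMUSG00000002603) spans 25687002 to 25705077 on the plus strand of chromosome 7, and Tgfb2 (ENSMUSG00000039239) spans 186622792 to 186705989 on the minus strand of chromosome 1. Tgfbr1 (ENSMUSG00000007613) lies on the plus strand of chromosome 4 from 47353222 to 47414931, and Ltbp1 (ENSMUSG00000001870) on the plus strand of chromosome 17 from 75005568 to 75392512. Of the other members, Tgfb3 (ENSMUSG00000021253) and Ltbp2 (ENSMUSG00000002020) lie on the minus strand of chromosome 12, from 86056745 to 86079041 and from 84783212 to 84876532, Tgfbr2 (ENSMUSG00000032440) on the minus strand of chromosome 9 from 116084293 to 116175360, and Tgfbr3 (ENSMUSG00000029287) on the minus strand of chromosome 5 from 107106570 to 107289629. All 8 are protein-coding genes. The sequences are the 250 bases before RefSeq transcription starts of GRCm38.p6, given 5′ to 3′ on the strand of the gene, at chr7:25686752-25687001 (+), chr1:186705990-186706239 (-), chr4:47352972-47353221 (+), chr17:75005279-75005528 (+) and chr17:75178531-75178780 (+). Capitals mark matches, on either strand, to the Sp/KLF letters GGGCGG, the TATA box TATAAA, the CRE letters TGACGTCA and the RUNX letters TGTGGT.
Tgfb1: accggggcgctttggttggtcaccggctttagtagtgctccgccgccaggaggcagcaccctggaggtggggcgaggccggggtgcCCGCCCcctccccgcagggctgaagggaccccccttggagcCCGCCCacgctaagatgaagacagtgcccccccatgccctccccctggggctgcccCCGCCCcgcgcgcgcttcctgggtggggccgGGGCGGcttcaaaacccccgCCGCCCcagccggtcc
Tgfb2: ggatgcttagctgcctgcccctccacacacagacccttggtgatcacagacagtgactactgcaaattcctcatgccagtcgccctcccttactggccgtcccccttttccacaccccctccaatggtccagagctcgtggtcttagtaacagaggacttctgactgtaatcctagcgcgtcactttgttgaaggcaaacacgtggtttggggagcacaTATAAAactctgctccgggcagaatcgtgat
Tgfbr1: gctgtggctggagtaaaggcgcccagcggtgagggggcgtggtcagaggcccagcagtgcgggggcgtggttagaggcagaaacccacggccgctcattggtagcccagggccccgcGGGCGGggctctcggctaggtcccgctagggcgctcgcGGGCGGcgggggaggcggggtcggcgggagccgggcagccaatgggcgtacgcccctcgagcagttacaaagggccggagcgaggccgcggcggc
Ltbp1, upstream start: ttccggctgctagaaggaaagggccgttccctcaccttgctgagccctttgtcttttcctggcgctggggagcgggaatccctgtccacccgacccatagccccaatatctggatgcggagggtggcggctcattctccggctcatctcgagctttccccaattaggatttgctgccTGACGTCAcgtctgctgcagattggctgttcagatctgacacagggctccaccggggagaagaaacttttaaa
Ltbp1, downstream start: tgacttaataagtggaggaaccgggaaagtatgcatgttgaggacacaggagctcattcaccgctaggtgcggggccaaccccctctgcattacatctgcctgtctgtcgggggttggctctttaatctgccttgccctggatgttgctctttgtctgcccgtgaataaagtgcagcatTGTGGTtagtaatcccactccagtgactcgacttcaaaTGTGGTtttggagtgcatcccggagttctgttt

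The Tgfb1 window was 75.2% G and C and held 5 GGGCGG matches, which start at 164, 123, 67, 36 and 16 bases before the start. The Tgfb2 window was 53.6% G and C and held no such match but a TATAAA match at 31 bases before the start. The Tgfbr1 window printed was 74.8% G and C, with GGGCGG at 133 and 95 bases before the start. A further Tgfbr1 start, whose window at chr4:47385966-47386215 (+) is not printed, had 52.8% G and C and none of the motifs searched. The upstream Ltbp1 window held TGACGTCA at 73 bases before its start, and the downstream window held TGTGGT at 71 and 33 bases before its own. Of 32851 promoter windows of this length in the genome, 32.74% held GGGCGG, 12.37% TATAAA, 14.05% TGTGGT and 1.546% TGACGTCA. The AP-1 letters TGACTCA (4.463% of windows), the T-box letters AGGTGTGA (1.12%) and the SMAD box GTCTAGAC (0.1674%) were in none of the 8 windows of the 6 members that had one. These matches describe letters only, and none of the motifs holds another within its own letters.

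The annotation held 31076 PTB nuclei of 15 types and 48237 PF/F nuclei of 16 types, with 33515253 to 43752949 unique molecular identifiers (UMIs) per PTB library and 37700625 to 52902902 per PF/F library. The PTB types are connective tissue (CT1 to CT4), chondrocyte progenitors (CP1 to CP6), matured chondrocytes, a hypertrophic chondrocyte/osteoblast class, osteoblasts, matured osteoblasts/osteocytes and osteoclasts. The study's own bone set was larger and also held immune cells and neurons, which are not among these annotated nuclei. A level is the UMIs of a gene per 1000000 UMIs (CPM) summed over the nuclei of a type in 1 library, and is given as mean ± SD over 4 libraries. Tbx1 itself was at 38.9 and 39.4 CPM in the WT and 26.3 and 35.7 CPM in the Tbx1+/- PTB libraries. In the PF/F it had 4 to 13 UMIs per library, too few to check the labels. A pair of libraries shared at most 60 annotated barcodes, and in no pair were these more than 0.503% of the smaller library.

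Most type labels were matched by their markers, with exceptions that touch the members. The osteoclast list (Acp5, Ctsk, Mmp9, Nfatc1) summed to 7399 to 9526 CPM in osteoclasts and next highest, to 1718 to 2913 CPM, in CT4. Much of the CT4 sum was Mmp9, at 1411 ± 481 CPM there and 1116 CPM in osteoclasts. In CT4 the connective tissue list (Col3a1, Vcan, Dcn, Postn) summed to 492 to 1039 CPM, against 3417 to 5884 CPM in CT1. The hypertrophic list (Col10a1, Ihh, Alpl) was at 414 to 468 CPM in the hypertrophic class, below the 627 to 709 CPM of osteoblasts. The paper counts Alpl among its osteoblast markers, and the sum was not split by gene. Matured chondrocytes also held erythroid transcripts, at 929 to 13308 CPM. No marker of these lists was at 0 in those types, and the part of such RNA in the levels of the members was not tested.

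All 8 members were higher in the PTB than in the PF/F when the annotated nuclei of each library were summed. Tgfb1 was at 63.6 ± 3.5 CPM in the 4 PTB libraries and at 2.07 ± 0.24 CPM in the 4 PF/F libraries. Tgfbr2 was at 210.4 ± 9.2 against 11.3 ± 1.9 CPM, and Tgfb2 at 120.4 ± 12.8 against 47.1 ± 2.8 CPM. For each of the 8 genes the PTB libraries all lay above the PF/F libraries. With edgeR the log2 difference was 4.92 (SE 0.11) for Tgfb1, 4.20 (SE 0.15) for Tgfbr2, 3.02 (SE 0.12) for Ltbp2, 2.93 (SE 0.09) for Tgfb3 and 2.91 (SE 0.15) for Ltbp1. It was 2.55 (SE 0.12) for Tgfbr3, 1.89 (SE 0.09) for Tgfbr1 and smallest, 1.34 (SE 0.10), for Tgfb2, with Benjamini-Hochberg adjusted p from 1.59e-09 to 1.88e-06. Of 21639 genes tested, 28.2% were called higher in the PTB, by an adjusted p under 0.05 and a difference above 1.5-fold. The annotated PTB nuclei are connective tissue, cartilage, bone and osteoclast types and the PF/F nuclei mostly neural, and in such sums more nuclei of a type and more RNA per nucleus cannot be told apart.

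Among the ligands, Tgfb1 and Tgfb2 ran opposite ways along the bone-forming classes of the PTB. Tgfb1 was at 39.9 and 27.2 CPM in the WT and 39.2 and 33.7 CPM in the Tbx1+/- CP nuclei, and at 111 and 103.5 CPM in WT and 101.8 and 109.7 CPM in Tbx1+/- osteoblasts. Every osteoblast value lay above every CP value, by 2.60 to 3.80 times within a library. Tgfb1 was highest in matured osteoblasts/osteocytes, at 134 and 157 CPM in WT and 152 and 137 CPM in Tbx1+/- libraries.

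Tgfb2 was at 168 and 147 CPM in WT and 149 and 149 CPM in Tbx1+/- CP nuclei. It was at 43.7 and 33.4 CPM in WT and 38.1 and 33.3 CPM in Tbx1+/- osteoblasts, so that every CP value lay above every osteoblast value, by 3.85 to 4.49 times within a library. The hypertrophic chondrocyte/osteoblast class lay between, at 101.0 ± 10.4 CPM, without overlap with either. Per Tgfb2 UMI there were 0.228 Tgfb1 UMIs in CP nuclei (0.185 to 0.263 over the 4 libraries), 0.921 in the hypertrophic class (0.844 to 1.00), 2.90 in osteoblasts (2.55 to 3.30) and 4.52 in matured osteoblasts/osteocytes (2.41 to 6.94). The first 3 of these classes did not overlap, and the last overlapped osteoblasts. CT nuclei, at 0.227, were like CP nuclei as a class, and osteoclasts were at 1.05. Types within CP ran from 0.157 in CP6 to 0.491 in CP1, which did not overlap the other CP types. Those within CT ran from 0.126 in CT3 to 0.382 in CT2. The ratio is used to compare classes and not the abundance of the ligands, since counts from 3′ ends and introns are not alike between genes.

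**Figure D1:**
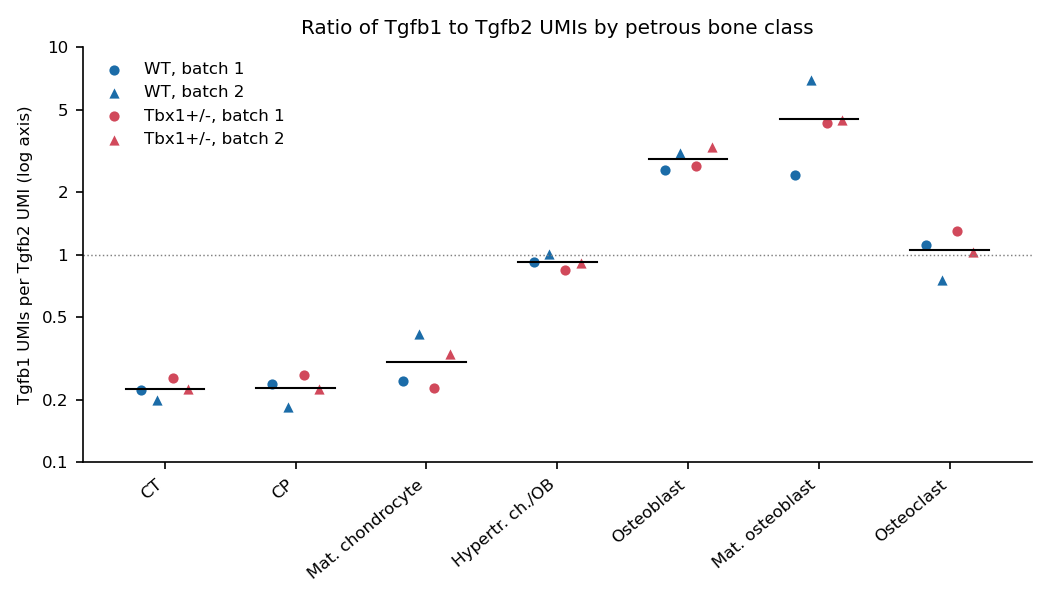
Tgfb1 UMIs per Tgfb2 UMI (log axis) in the 7 PTB classes, with 1 point per library (WT blue, Tbx1+/- red, circles batch 1, triangles batch 2) and a bar at the mean of the 4 libraries. Points of CT and CP lie near 0.2, those of the hypertrophic class near 1 and those of osteoblasts from 2.55 to 3.30.

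Tgfb2 was highest of all 31 types in CT4, at 428 and 396 CPM in WT and 396 and 437 CPM in Tbx1+/- libraries. That was 1.71 to 1.98 times the level of CT3 (222.8 ± 17.1 CPM), the next type, with no overlap. CT4 was also second for Tgfb1 (119.1 ± 12.3 CPM), where it overlapped both its neighbours, matured osteoblasts/osteocytes and osteoblasts. Within CT the types differed in Tgfb2 from 92.8 CPM in CT2 to 414.4 CPM in CT4. Matured chondrocytes had a Tgfb2 level of 219.3 ± 65.6 CPM, whose low value of 129 CPM was in the batch 2 WT library.

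Tgfb3 varied least of the ligands over the PTB types, by 5.07 times from the highest to the lowest mean, against 6.17 times for Tgfb1 and 11.5 times for Tgfb2. It was at 68.7 ± 11.2 CPM in CT1, 66.2 ± 4.6 CPM in CP2, 59.5 CPM in CT4, 59.2 CPM in CP4 and 57.6 CPM in CT3, of which CP2 lay above CT3 without overlap and the others overlapped their neighbours. It was lowest in osteoclasts, at 9.21 to 16.9 CPM, just under the 17.4 to 22.6 CPM of osteoblasts. Osteoblasts had 20.5 ± 2.5 CPM and matured osteoblasts/osteocytes 44.1 ± 7.9 CPM, without overlap. The SD of Tgfb3 over libraries was 0.81 CPM in the CP class as a whole, at a mean of 46.7 CPM.

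**Figure D2:**
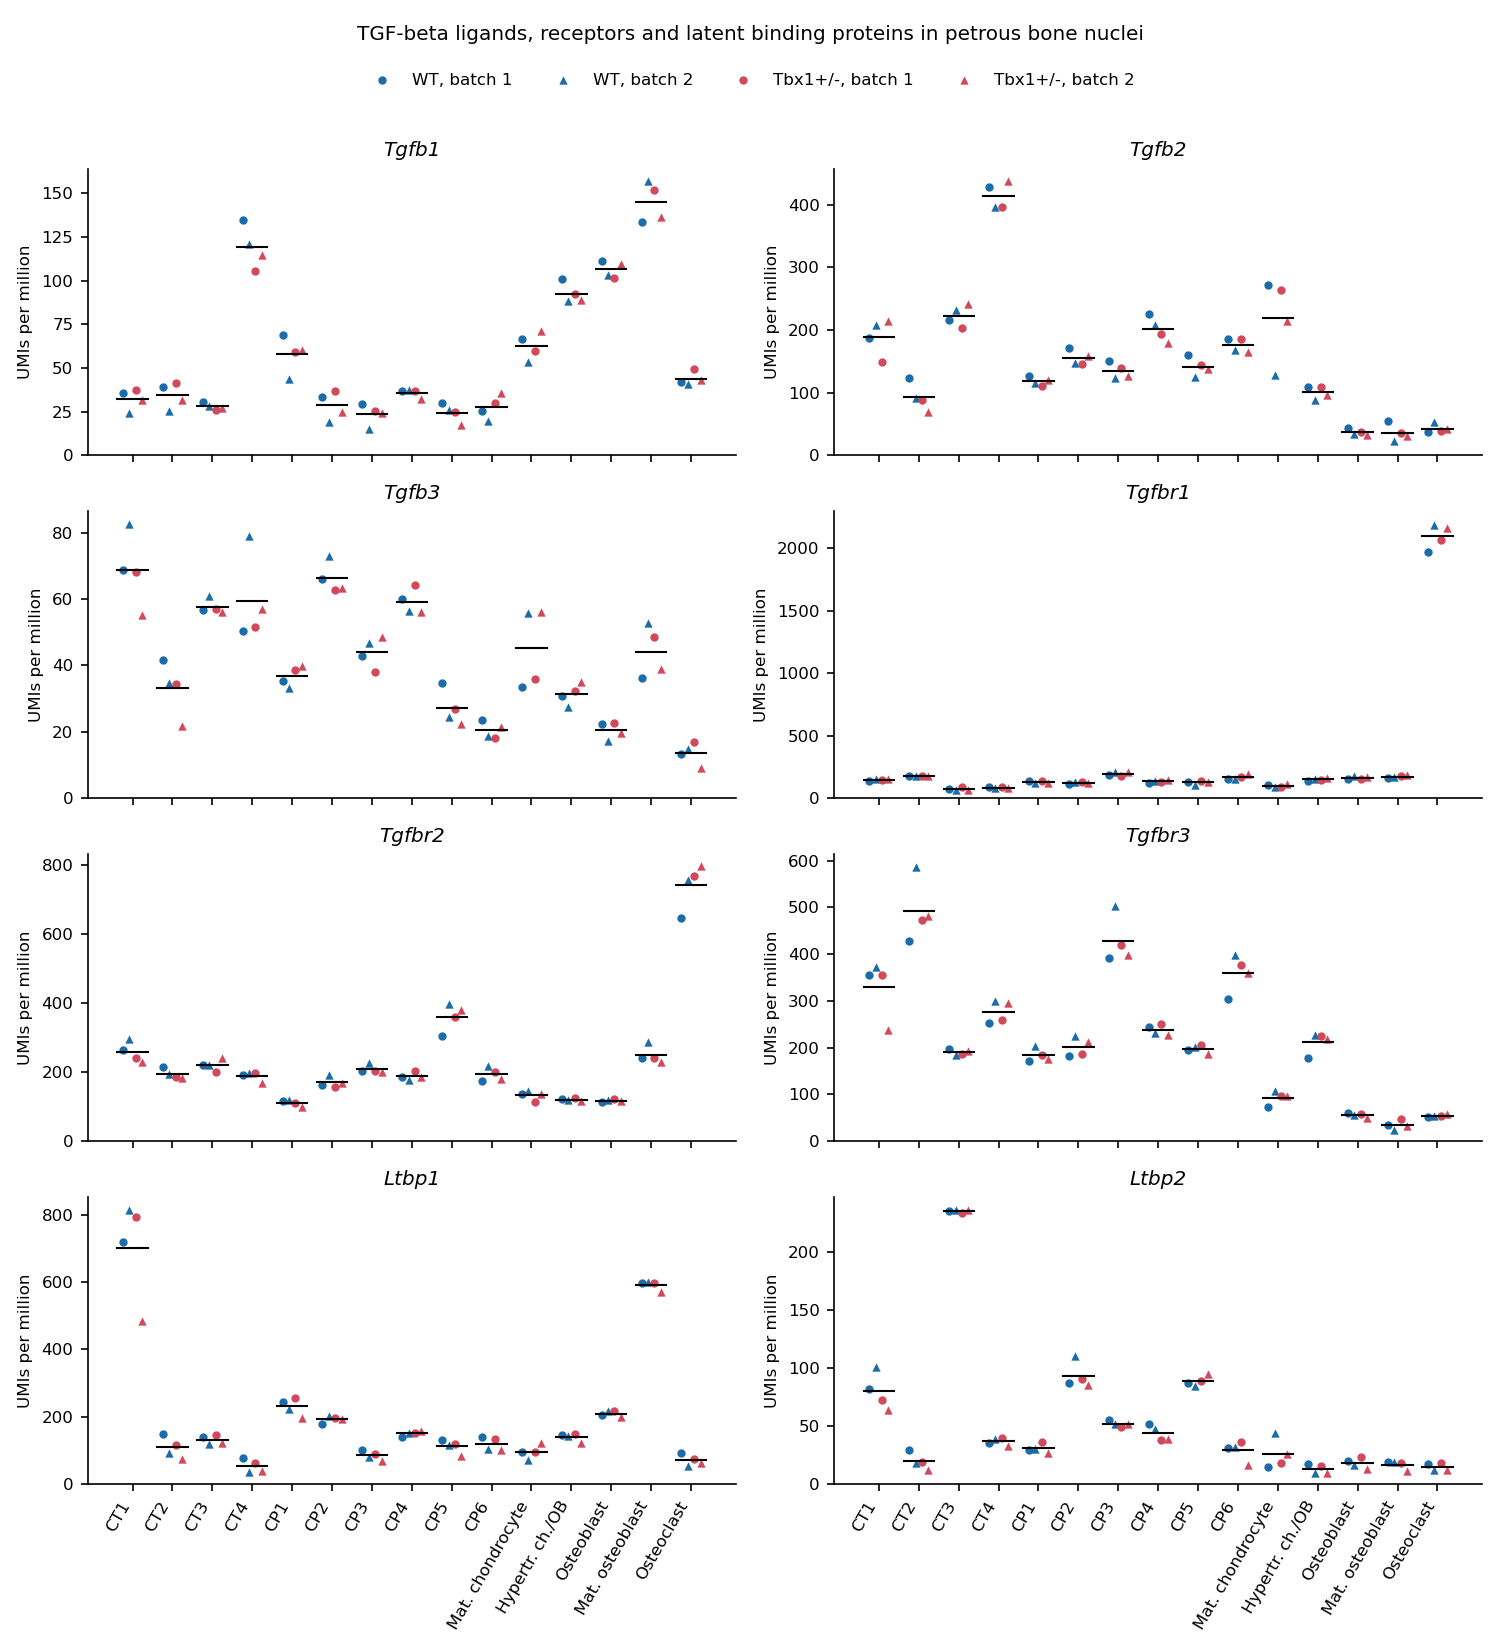
CPM of the 8 genes in the 15 PTB types, with 1 point per library (WT blue, Tbx1+/- red, circles batch 1, triangles batch 2) and a bar at the mean of 4 libraries. Each panel starts at 0 and has its own scale, and the single high column for Tgfbr1 is osteoclasts, at 2099 CPM against at most 196.8 CPM elsewhere.

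The type I receptor gene Tgfbr1 was concentrated in osteoclasts. It was at 1970 and 2190 CPM in the WT and 2069 and 2165 CPM in the Tbx1+/- libraries (2099 ± 100.5 CPM). CP3, the next type, was at 196.8 ± 16.4 CPM, and the osteoclast level was 10.2 to 11.4 times that of CP3 within a library. The lowest type was CT3, at 73.3 ± 13.4 CPM, where it overlapped CT4. A Tgfbr1 UMI was found in 93.7% to 96.4% of osteoclast nuclei, which had median depths of 4963 to 7105 UMIs. In CT3, the type with the lowest level, the share was 26.4% to 33.3% at median depths of 4366 to 5369 UMIs, and in osteoblasts it was 45.8% to 57.8%. The immune list (Ptprc, Csf1r, Cx3cr1, C1qa, Mrc1) summed to 785 to 846 CPM in the osteoclast nuclei, above the 39 to 162 CPM of every other PTB type.

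The type II receptor gene Tgfbr2 was highest in osteoclasts as well, at 647 and 757 CPM in WT and 767 and 797 CPM in Tbx1+/- libraries. It exceeded CP5 (360.4 ± 39.4 CPM) by 1.91 to 2.13 times within a library. There were 2.84 Tgfbr1 UMIs per Tgfbr2 UMI in osteoclasts (2.70 to 3.05), and 0.698 in matured osteoblasts/osteocytes (0.581 to 0.804). Matured osteoblasts/osteocytes had 250.0 ± 26.2 CPM of Tgfbr2, against 117.4 ± 4.6 CPM in osteoblasts, a difference of 1.97 to 2.43 times in each library. The other types lay from 111.6 CPM in CP1 to 258 CPM in CT1.

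**Figure D3:**
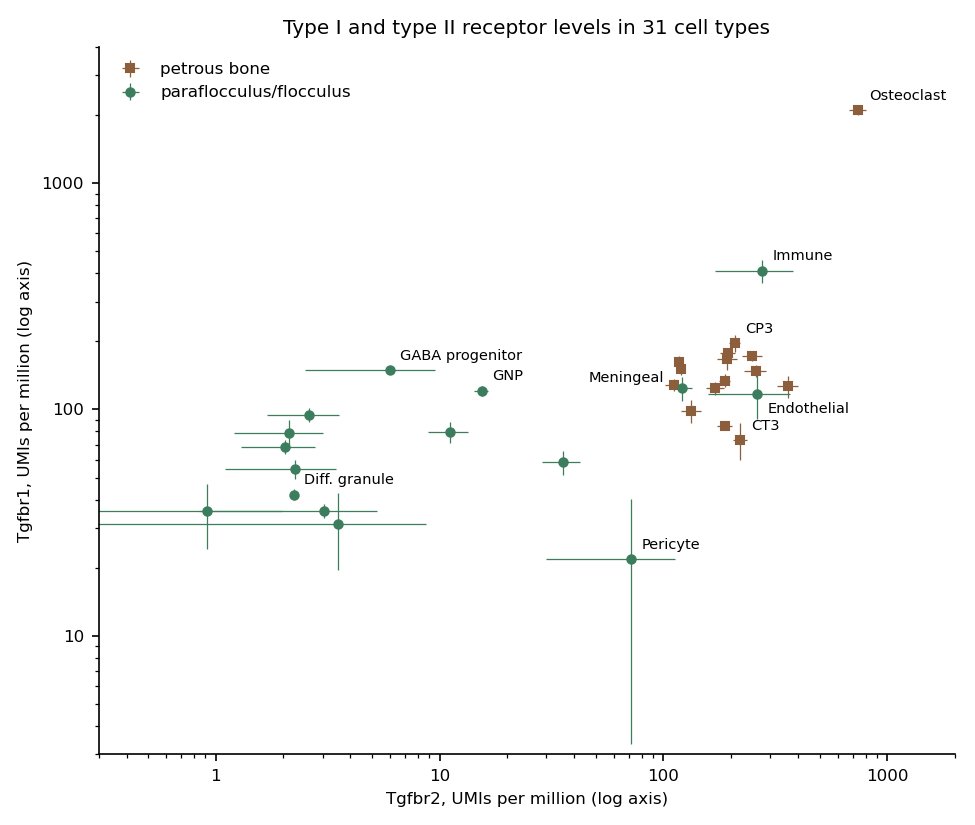
Mean Tgfbr1 against mean Tgfbr2 CPM in the 31 types (both axes log, bars ± SD over 4 libraries, PTB squares, PF/F circles), where a bar that reaches below the axis is drawn only to its edge. Osteoclasts stand apart at 2099 and 742.1 CPM, PF/F immune nuclei come next in Tgfbr1 at 410.8 CPM, and the PF/F neural types spread to the left at low Tgfbr2.

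The co-receptor gene Tgfbr3 was low where both of these receptor genes were highest. It was at 492.1 ± 66.8 CPM in CT2, 428.6 ± 51.2 CPM in CP3 and 360 CPM in CP6, of which CT2 overlapped CP3 and CP3 overlapped CP6. It was at 246.9 ± 20.5 CPM in the CP class and at 55.4 ± 4.4 CPM in osteoblasts, 3.87 to 5.01 times lower within a library. The lowest type was matured osteoblasts/osteocytes, at 34.4 and 23.9 CPM in WT and 46.3 and 31.5 CPM in Tbx1+/- libraries, below every osteoblast value. The hypertrophic class kept 211.5 ± 23.5 CPM, so that the step in Tgfbr3 lay between this class and osteoblasts. Osteoclasts, with the most Tgfbr1 and Tgfbr2, had 53.7 ± 2.6 CPM and overlapped osteoblasts.

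Ltbp1 was high in types at both ends of the PTB annotation. In CT1 it was at 718 and 813 CPM in the WT and 792.5 and 484 CPM in the Tbx1+/- libraries, and in matured osteoblasts/osteocytes at 595.5 and 598.6 CPM in WT and 595.7 and 570.9 CPM in Tbx1+/- libraries. The groups overlapped only through the low CT1 value of the batch 2 Tbx1+/- library, and both lay above the 196 to 256 CPM of CP1. Osteoblasts had 208.6 ± 9.0 CPM, and matured osteoblasts/osteocytes did not overlap them. CT4 was lowest at 53.8 ± 19.9 CPM. The CT class as a whole is thus a mixture. Its Ltbp1 levels were 486, 296, 461 and 126 CPM (WT batch 1 and 2, then Tbx1+/- batch 1 and 2). The share of CT UMIs that came from CT1 was 60.8%, 28.8%, 51.1% and 11.8% in the same libraries. The part of this share in the CT levels was not tested. The low CT1 value of the batch 2 Tbx1+/- library rests on 118 nuclei.

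Ltbp2 marked CT3, at 235.7, 236.2, 233.6 and 236.0 CPM in the 4 libraries. CP2, the next type, was at 93.2 ± 11.6 CPM and CP5 at 88.6 CPM, and CT3 exceeded CP2 by 2.14 to 2.77 times within a library. The 4 bone and hypertrophic types were the lowest, from 13.1 ± 3.8 CPM in the hypertrophic class to 17.9 CPM in osteoblasts, with matured osteoblasts/osteocytes and osteoclasts between and no order beyond their spread, and CT2 (19.4 CPM) overlapped them. CT1, CT3 and CT4, all annotated as connective tissue, thus led in Ltbp1, Ltbp2 and Tgfb2 respectively.

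Over class pairs, a member was counted where its 4 libraries in one class all lay above the 4 in the other and the means differed by over 1.5 times, and the share of all genes so counted stands beside it. Of the PTB pairs, CP nuclei against osteoblasts had the most members counted. There 5 of 8, Tgfb2, Tgfb3, Tgfbr2, Tgfbr3 and Ltbp2, were higher in CP (20.7% of all genes), and Tgfb1 was higher in osteoblasts (7.84%). Against matured chondrocytes, Tgfbr3, Ltbp1 and Ltbp2 were higher in CP (17.2%) and Tgfb1 was lower (8.42%). Against the hypertrophic class, Tgfb2, Tgfbr2 and Ltbp2 were higher in CP (13.3%) and again Tgfb1 was lower (9.32%). Tgfb1 was thus the member higher outside CP in each of these 3 pairs.

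Between osteoblasts and osteoclasts, Tgfb1, Tgfb3 and Ltbp1 were higher in osteoblasts (19.3%) and Tgfbr1 and Tgfbr2 in osteoclasts (21.6%). Between osteoblasts and matured osteoblasts/osteocytes, Tgfbr3 was higher in the former (8.21%) and Tgfb3, Tgfbr2 and Ltbp1 in the latter (5.95%). CT and CP differed only in Ltbp2, which was higher in CT (5.66%), with 0 members higher in CP (6.36%). An Ltbp2 UMI was found in 20.4% to 23.7% of CT and 18.8% to 22.1% of CP nuclei, which overlap. CT3, the type with the highest Ltbp2 level (235.4 CPM), held 13.7% and 26.5% of CT UMIs in WT and 15.7% and 27.7% in Tbx1+/- libraries. In CT2 only 4.63% to 9.19% of nuclei held an Ltbp2 UMI. The part of CT3 in the class difference was not tested. The classes were made by clustering on these same genes, so these counts are descriptions and carry no test.

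In the PF/F, Tgfb1 was high in the immune and vascular types. It was at 60.3 and 62.0 CPM in WT and 76.2 and 78.5 CPM in Tbx1+/- immune nuclei, at 78.4 ± 21.6 CPM in pericytes and at 63.2 ± 10.8 CPM in endothelial nuclei, with no order among the 3. Meningeal nuclei had 6.65 ± 1.8 CPM, and the 12 other types had mean levels of 0.327 to 1.49 CPM. Pericyte nuclei numbered 12 to 25 and endothelial nuclei 15 to 65 per library, and the pericyte value rests on 18 Tgfb1 UMIs. Endothelial nuclei also held erythroid transcripts, at 321 to 19484 CPM.

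Tgfb2 was found in neural and vascular types of the PF/F. It was at 79.1 to 96.1 CPM in astroglia and 59.2 to 86.3 CPM in differentiated GABA interneurons, which overlapped, and at 49.98 ± 3.34 CPM in granule neuron progenitors (GNPs). Differentiated granule neurons, the daughters of GNPs, were at 36.7 ± 3.5 CPM. Endothelial nuclei had the highest mean, 101.8 ± 41.1 CPM, but ranged from 42.4 to 133 CPM, and pericytes, at a mean of 45.4 CPM, overlapped GNPs. Tgfb3 was low throughout, with 12.2 ± 1.7 CPM in Purkinje cells, 10.6 CPM in meningeal nuclei and 8.80 CPM in astroglia, and it was listed at 0 in some libraries of the rarer types.

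**Figure D4:**
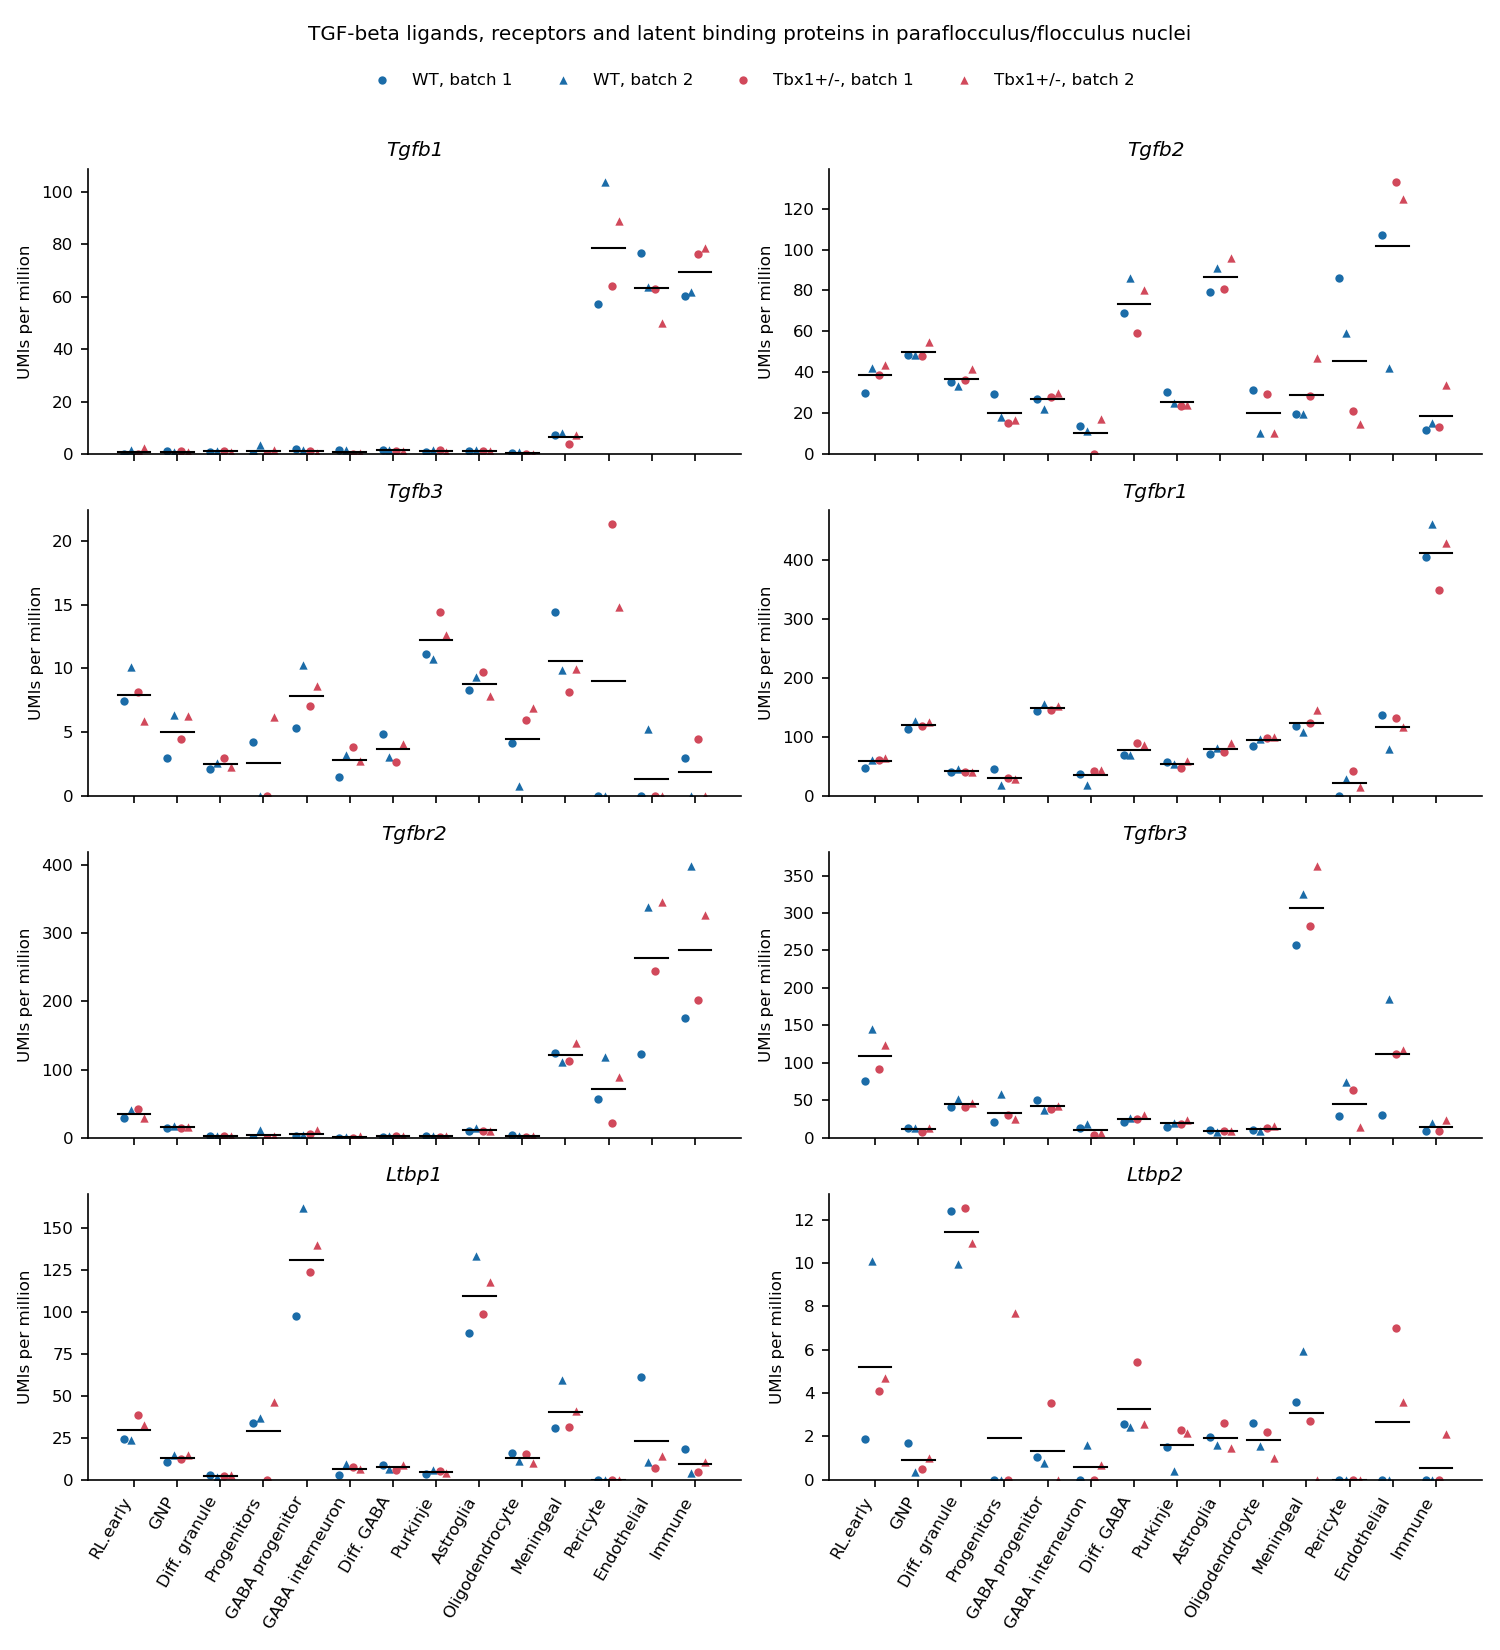
CPM of the 8 genes in 14 of the PF/F types, with 1 point per library (WT blue, Tbx1+/- red, circles batch 1, triangles batch 2) and a bar at the mean of 4 libraries. Each panel starts at 0 and has its own scale, and the columns for pericytes and endothelial nuclei rest on 12 to 65 nuclei per library.

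Tgfbr1 was highest in PF/F immune nuclei, at 404 and 461 CPM in WT and 350 and 428 CPM in Tbx1+/- libraries. That was 2.39 to 2.97 times the level of GABA interneuron progenitors (149.4 ± 5.2 CPM), which came next. GNPs had 112.8 and 126.7 CPM in WT and 118.3 and 125.7 CPM in Tbx1+/- libraries, and differentiated granule neurons 41.2 and 45.4 CPM in WT and 41.1 and 40.6 CPM in Tbx1+/- libraries. All GNP values lay above all values of the differentiated neurons. Tgfbr2 was at 15.4 ± 1.1 CPM in GNPs and 2.23 ± 0.079 CPM in differentiated granule neurons, also without overlap, and it was highest in immune (175 to 399 CPM) and endothelial nuclei (122 to 346 CPM), which overlapped. In the immune nuclei both batch 2 libraries were above both batch 1 libraries in Tgfbr2.

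Tgfbr3 was highest in meningeal nuclei, at 307.1 ± 46.6 CPM, ahead of endothelial nuclei at 111.4 ± 63.3 CPM and early rhombic lip nuclei (RL.early) at 109.3 ± 31.1 CPM. It went the other way from Tgfbr1 in the granule lineage, with 12.1 ± 2.6 CPM in GNPs and 45.0 ± 5.2 CPM in differentiated granule neurons. Astroglia had the lowest mean, 9.34 ± 1.02 CPM, and overlapped GNPs. Ltbp1 was highest in GABA interneuron progenitors (130.9 ± 27.2 CPM) and astroglia (109.3 ± 20.5 CPM), which overlapped, and stood at 13.0 CPM in GNPs and 2.32 CPM in differentiated granule neurons. Ltbp2, low in the PF/F, was highest in differentiated granule neurons, at 12.4 and 9.94 CPM in WT and 12.6 and 10.9 CPM in Tbx1+/- libraries. No UMI of Ltbp1 or Ltbp2 was found in pericytes, where 3 counts over the 4 libraries would be 13.8 CPM.

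Counted in the same way over the members with a mean of at least 5 CPM in either class, Tgfbr1, Tgfbr2 and Ltbp1 were higher in GNPs than in differentiated granule neurons (31.5% of all genes), and Tgfbr3 and Ltbp2 were lower (13.8%), of 7 members. Tgfb2 and Ltbp1 were higher in astroglia than in meningeal nuclei (12.0%), and Tgfb1, Tgfbr1, Tgfbr2 and Tgfbr3 were lower (15.2%). Against immune nuclei, Tgfb2, Tgfb3 and Ltbp1 were higher in astroglia (15.3%) and Tgfb1, Tgfbr1 and Tgfbr2 lower (19.0%). The meningeal and immune nuclei thus had more of both signalling receptors than astroglia.

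Tgfb2, Tgfb3, Tgfbr2 and Ltbp1 were higher in astroglia than in oligodendrocytes (15.1%), with 0 members lower (12.2%), of 6. Tgfbr1, Tgfbr2 and Ltbp1 were higher in endothelial nuclei than in pericytes (7.17%), with 0 lower (3.78%), of 7. The last pair rests on few nuclei, and its Ltbp1 difference is against 0 UMIs.

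The genes whose levels over the 31 types were most like those of a member, among 13801 genes with a mean of at least 5 CPM, are given by the Pearson r of log2(CPM + 1), as a description. For Tgfb1 they were Piezo1 (0.945), Shisa5 and Stat6, for Tgfb2 Hhat (0.842), Sipa1l1 and Oat, and for Tgfb3 Clec11a (0.943), Thbs2 and Gask1a. For Tgfbr1 they were Arl8b (0.926), Ubac2 and Stard3, for Tgfbr2 Vamp8 (0.961), Trim12a and Lrrk1, and for Tgfbr3 Kank4 (0.892) and Abca6. Ltbp1 was most like Adgrg6 (0.879), Pdgfd and P3h4, and Ltbp2 most like CJ186046Rik (0.921), Aqp1 and Col8a2. The 31 types come from the same 8 libraries, and types of a tissue share their libraries.

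The rest of the pathway was followed in a list of 58 genes. Of these, 48 were called higher and 2 lower in the PTB than in the PF/F with edgeR, and the median log2 difference was 2.40, against -0.06 over all genes tested. All 18 genes of latency and activation were called higher, as were the 4 matrix proteins that bind the ligands and the 11 targets. Of 16 SMADs and SMAD regulators 11 were called higher. The 9 further receptors were mixed, with 4 higher and 2 lower, the activin receptors Acvr1c (-0.66, SE 0.20) and Acvr2b (-0.63, SE 0.08). Over all genes, 60.8% were called in either direction, with 28.2% called higher and 32.5% called lower in the PTB.

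Among the PTB types, osteoclasts had the highest mean of 7 of the 58 genes (12.1%, against 17.4% of the 15253 genes with a mean of at least 5 CPM in some PTB type). These were Itgav (2799 ± 338 CPM) and Itgb3 (681 ± 69 CPM), which together form the αvβ3 integrin, Nrros, the milieu molecule that holds latent TGF-β on macrophages, Furin, the protease that cleaves the propeptide, Acvr2a, Smurf1 and Pmepa1. Matured osteoblasts/osteocytes had the highest mean of 11 (19.0%, against 6.10% of all), including Ltbp3 (144 ± 31 CPM) and Smad3 (355 ± 50 CPM). Some of these leads lay within the spread. Ltbp3 was at 115 CPM in CT1, the next type. Col1a1 was at 9352 ± 3921 CPM against 9349 CPM in osteoblasts, and Smad7 at 143 ± 23 CPM against 141 CPM in the hypertrophic class. CT1, where Ltbp1 was highest, had the highest mean of 8 (13.8%, against 6.08%), including the fibrillins Fbn1 (573 ± 57 CPM) and Fbn2 (1148 ± 129 CPM). In the PF/F, endothelial nuclei had the highest mean of 15 (25.9%, against 11.8% of 17914 genes), pericytes of 14 (24.1%, against 13.7%), meningeal nuclei of 8 (13.8%, against 5.91%) and immune nuclei of 6 (10.3%, against 13.0%). The first 2 of these types had 12 to 65 nuclei per library, and some of their leads lay within the spread, such as Ltbp4 in pericytes (68.5 ± 70.4 CPM). All 58 list genes were counted at any level, such as Tagln in pericytes (3.70 ± 7.40 CPM). The shares of all genes cover only genes with a mean of at least 5 CPM in some type of the tissue. All these counts are descriptions. The immune nuclei had Nrros at 241 ± 53 CPM, and the genes highest in endothelial nuclei included the TGF-β co-receptor Eng (438 ± 78 CPM) and the endothelial type I receptor Acvrl1. GABA interneuron progenitors, where Ltbp1 was highest, also had the highest mean of the integrin Itgb8 (131 ± 28 CPM).

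Whether loss of 1 copy of Tbx1 changed the members was compared next. None of the 8 was called in the annotated PTB nuclei as a whole with edgeR, where 0.0% of 20250 genes were called. Tbx1 itself was thus not called either, at 38.9 and 39.4 CPM in WT and 26.3 and 35.7 CPM in Tbx1+/- libraries. The change was 0.11 (SE 0.10) on the log2 scale for Tgfb1, -0.18 (SE 0.12) for Tgfb2, -0.11 (SE 0.11) for Tgfb3, 0.09 (SE 0.14) for Tgfbr1, -0.02 (SE 0.09) for Tgfbr2, -0.13 (SE 0.09) for Tgfbr3, -0.14 (SE 0.21) for Ltbp1 and -0.27 (SE 0.12) for Ltbp2. All 8 members had an adjusted p of 1.00. Over all genes, 217 had an unadjusted p under 0.05 with edgeR and 115 with DESeq2, none of them a member.

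Ltbp2, with the largest change, was at 49.3 and 48.2 CPM in WT and 43.9 and 37.2 CPM in Tbx1+/- PTB libraries, and Tgfb2 at 139 and 116 CPM in WT and 111 and 115 CPM in Tbx1+/- libraries. The genotypes did not overlap for 5 members, of which Tgfb1 was higher and Tgfb2, Tgfb3, Tgfbr3 and Ltbp2 were lower in Tbx1+/- libraries, whereas 23.2% of all genes tested did not overlap. The hypertrophic, osteoblast and matured osteoblast types, in which Tgfb1 was higher and Tgfb2 and Ltbp2 lower than in CP, together held 31.5% and 36.6% of the annotated UMIs in WT and 40.5% and 40.0% in Tbx1+/- PTB libraries, and their part in these changes was not tested. Within batches the difference in log2(CPM + 1) was -0.32 and -0.01 for Tgfb2 and -0.16 and -0.37 for Ltbp2. With only 2 libraries per genotype, an exact two-sided permutation test cannot give a p below 0.33. Ltbp2 had an unadjusted p of 0.0723 with edgeR (adjusted p 1.00), and of 0.0258 with the replicate block (adjusted p 0.944).

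In the 7 PTB classes no member was called in any of 56 tests, with changes from -0.42 (Ltbp1 in CT) to 0.46 (Ltbp1 in matured chondrocytes), and 0.0% of genes were called in each class. With the replicate block 24 genes were called in CT, 18 in matured chondrocytes, 4 in matured osteoblasts/osteocytes and 3 in osteoclasts, none of them a member. Genotypes did not overlap for Tgfbr2, Tgfb3 and Ltbp2 in CT (lower in Tbx1+/-, 22.9% of all genes), Tgfb3 and Ltbp2 in CP (lower, 21.0%), Ltbp1 in matured chondrocytes (higher, 29.0%) and Tgfb3 in the hypertrophic class (higher, 26.2%). They did not overlap for Tgfbr1 (higher) and Ltbp2 (lower) in matured osteoblasts/osteocytes (28.9%), for Tgfb1 and Tgfbr2 in osteoclasts (higher, 27.1%), and for no member in osteoblasts (24.2%). In osteoclasts Tgfbr1 was at 1970 and 2190 CPM in WT and 2069 and 2165 CPM in Tbx1+/- libraries, which overlapped. The Ltbp1 change in CT had an SE of 0.59 and was -0.08 in batch 1 and -1.23 in batch 2. The batch 2 Tbx1+/- library had 11.8% of its CT UMIs in CT1, and the CT1 level of Ltbp1 was also lowest in that library. The part of either in this change was not tested. With the replicate block the Ltbp1 change in CT was -0.63 (unadjusted p 0.00476, adjusted p 0.344 with edgeR).

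**Figure D5:**
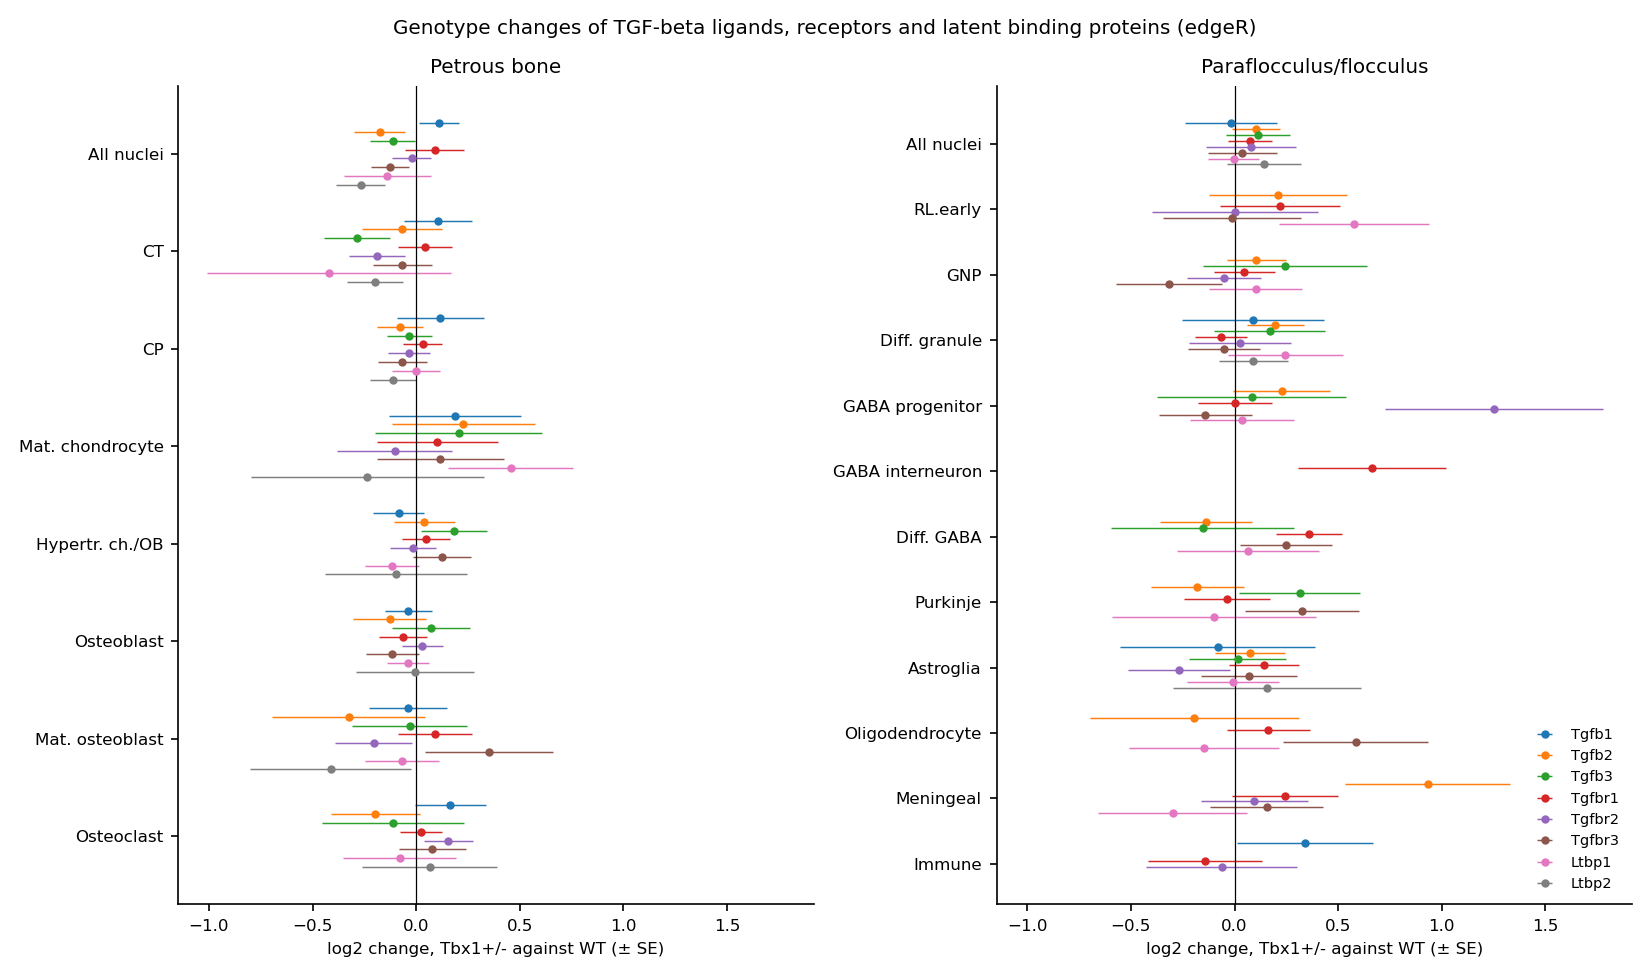
Log2 change of Tbx1+/- against WT (edgeR, bars ± SE) of the members in PTB classes (left) and PF/F types (right), for each member that passed the filter on low counts there. No member was called in any class, the PTB changes lie from -0.42 to 0.46, and Tgfbr2 in GABA interneuron progenitors reaches furthest, at 1.25.

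In the PF/F as a whole the members changed by -0.02 (Tgfb1) to 0.14 (Ltbp2), all with an adjusted p of 1.00 in edgeR, and 0.0% of 20756 genes were called. There 99 genes had an unadjusted p under 0.05 with edgeR and 29 with DESeq2. Tgfbr1 was the member whose genotypes did not overlap (17.9% of all genes), with 71.7 and 74.8 CPM in WT and 75.5 and 76.7 CPM in Tbx1+/- libraries. Over the PF/F as a whole and its types with enough nuclei, 70 tests of members were possible, none was called and 3 had an unadjusted p under 0.05 (1 with DESeq2). In each type 0.0% of genes were called except Purkinje cells, with 0.00778% (1 gene, no member). With the replicate block 0 to 24 genes were called in a type, the most in meningeal nuclei, and again no member.

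Of the 3 tests with an unadjusted p under 0.05, 2 were in meningeal nuclei and GABA interneuron progenitors, both at low levels. Tgfb2 in meningeal nuclei was at 19.8 and 19.8 CPM in WT and 28.4 and 47.1 CPM in Tbx1+/- libraries, a change of 0.93 (SE 0.40, unadjusted p 0.0356, adjusted p 1.00 with edgeR). Tgfbr2 in GABA interneuron progenitors was at 3.20 and 3.96 CPM in WT and 5.88 and 10.97 CPM in Tbx1+/- libraries, a change of 1.25 (SE 0.53, unadjusted p 0.041, adjusted p 1.00). Genotypes did not overlap for 26.7% and 25.2% of all genes in these types, where Tgfbr1 in meningeal nuclei and Tgfb2 in GABA interneuron progenitors were the other members without overlap, all higher in Tbx1+/- libraries.

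Elsewhere in the PF/F, members higher in Tbx1+/- libraries without overlap were Tgfbr1 in differentiated GABA interneurons (22.6% of all genes without overlap), GABA interneurons (27.2%), oligodendrocytes (24.3%) and RL.early (27.1%), Tgfbr3 in oligodendrocytes, Ltbp1 in RL.early, Tgfb1 in immune nuclei (29.3%), Tgfb2 in differentiated granule neurons (20.1%) and Tgfb3 in Purkinje cells (23.2%). Those lower were Tgfbr1 in differentiated granule neurons and Tgfb2 in Purkinje cells. The former barely missed an overlap, with 41.154 and 45.426 CPM in WT and 41.149 and 40.565 CPM in Tbx1+/- libraries. None was found in astroglia (21.5%) or GNPs (22.2%), and in PF/F progenitors (27.8%) no member could be tested.

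The difference between the tissues in the genotype change was tested as an interaction, and no member was called (0.0% of 22148 genes). It ranged from -0.40 (SE 0.19, unadjusted p 0.0718) for Ltbp2 to 0.13 (SE 0.22) for Tgfb1, with an adjusted p of 1.00 for each in edgeR. Over all genes, 199 had an unadjusted p under 0.05 with edgeR and 101 with DESeq2.

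With all libraries and no batch term, none of the 58 further genes of the pathway was called for genotype in the PTB, the PF/F or their classes. With the replicate block 2 were called, Postn in CT (-0.81, adjusted p 0.0407) and Tnc in PF/F meningeal nuclei (1.12, adjusted p 0.00147 with edgeR), where 0.151% and 0.240% of all genes were called. Astroglia had the highest PF/F level of Tnc (2150 ± 348 CPM), and the part of free RNA, which these UMIs still hold, in the meningeal change was not tested. Postn was highest in CT1 (855 ± 273 CPM), and the CT1 share of CT UMIs was 60.8% and 28.8% in WT and 51.1% and 11.8% in Tbx1+/- libraries. The part of this share in the Postn change was not tested. The median change of the list was -0.02 in the PTB, against -0.003 over all genes, and 0.04 in the PF/F, against 0.003. In the PTB 2 list genes had an unadjusted p under 0.05, Itgb3 (0.29, SE 0.09) and Tnc, the matrix protein tenascin C (0.38, SE 0.10), and in the PF/F 3 did, among them Col3a1 (0.42, SE 0.12) and Dcn, decorin, which binds the ligands (0.38, SE 0.15). Tnc was at 831 and 797 CPM in WT and 1024 and 1101 CPM in Tbx1+/- PTB libraries, and Itgb3 at 71.9 and 79.2 against 92.0 and 92.8 CPM, both without overlap. Their adjusted p was 1.00 with edgeR. Tnc was highest in the hypertrophic class (3868 ± 380 CPM), which held 12.5% and 11.3% of the annotated PTB UMIs in WT and 14.9% and 14.6% in Tbx1+/- libraries. Col3a1 and Dcn were highest in the PF/F in meningeal nuclei (887 ± 146 and 581 ± 81 CPM), which held 1.32% and 1.34% of the annotated UMIs in WT and 1.78% and 1.52% in Tbx1+/- libraries. The part of these shares in the changes was not tested. The other genes with the largest same-sign change of their group in the PTB were Lrrc32 (-0.26), Acvr2a (-0.14), Acvr2b (0.09), Tgif2 (-0.14), Pmepa1 (0.12), Aspn (-0.35) and Postn (-0.47), and those in the PF/F were Lrrc32 (0.68), Itgb6 (0.94), Eng (0.27), Acvrl1 (0.50), Smad9 (-0.12), Tgif2 (-0.10), Fmod (1.22) and Postn (0.36). Lrrc32, Itgb6 and Fmod were each under 1 CPM in every PF/F library, and the Fmod change had an SE of 0.86 and set 0.569 and 0.0265 CPM in WT against 0.7705 and 0.662 CPM in Tbx1+/- libraries, which did not overlap. All of these had an adjusted p of 1.00 with edgeR.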

How the data were processed

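snRNA-seq (10x 3′) was done on pools of 5 mice, with 8 libraries in all, 2 for each tissue and genotype. The authors made the deposited count values, raw UMIs per gene and barcode, with Cell Ranger 7.0.0, introns included, on mm10. They come before the authors' SoupX correction, so free RNA remains in them. Cell types are those of the authors' annotation. Doublet removal is not given in the sources used here, and an alternative left out the top 8% of each library by UMIs.

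UMIs were summed per library and type. Genotypes and tissues were tested with edgeR 4.0.16 (filterByExpr, TMM, quasi-likelihood, no batch term) in R 4.3.3, for types with at least 20 nuclei in every library. A call is a Benjamini-Hochberg adjusted p under 0.05 over all genes of a fit and a change above 1.5-fold, and the SE was taken from the F statistic. The study describes PTB and PF/F as dissected from P5.5 mice and does not say that separate mice were used. The fits over both tissues treated the libraries as independent and did not pair them by mouse pool. P-values measure the spread between libraries of a genotype. In fits without a batch term this spread holds the difference between the 2 experiments as well as that between pools. DESeq2 1.42.0, RLE factors, no filter, nuclei with at least 2000 genes, means over nuclei, a replicate block and leaving out each library were the alternatives. The fits were also run on simulated counts that held no shared difference between batches. Those runs do not show what size of change could be seen in these libraries. Intervals and the limit of 3 counts cover counting error only. Replicate numbers mark 2 separate experiments, and deviations of same-numbered libraries from their genotype means correlated across genes by 0.478 in the PTB and 0.550 in the PF/F. Python 3.11.15 was used for sums and levels.

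Named genes are the members, Tbx1, called pathway genes, the 2 genes of each pathway group with the largest change of one sign in both batches, the 3 genes most like each member, and markers. Pathway genes given with the type of their highest mean, and Acvr1c and Acvr2b, were chosen after their values were seen. The members and lists were chosen with earlier results of these data known. Promoter sequences are from RefSeq. Values of 2 PF/F types, with 1 of the 3 member tests at an unadjusted p under 0.05, and 1 gene most like Tgfbr3 are not reported here.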

Additional observations from a re-analysis of the deposited data

Results flagged for a closer look

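A library far from the other 3 was looked for in 264 combinations of member and type, where chance gives about 1 in 20, and 16 were found. For Tgfb2 the batch 1 WT library was high in all annotated PTB nuclei (139 CPM) and in the CP class (168 CPM), and the batch 2 Tbx1+/- library was high in the PF/F as a whole (51.2 CPM), in GNPs (55.0 CPM) and in immune nuclei (33.9 CPM). For Tgfb3 the batch 1 WT library was low in the PF/F (4.53 CPM). For the receptors, the batch 2 WT library was high for Tgfbr1 in differentiated granule neurons (45.4 CPM) and for Tgfbr2 in CP3 (226 CPM). Tgfbr3 was low in CT1 of the batch 2 Tbx1+/- library (238 CPM), in the hypertrophic class of the batch 1 WT library (177 CPM) and in GNPs of the batch 1 Tbx1+/- library (8.24 CPM). Ltbp1 was low in matured osteoblasts/osteocytes of the batch 2 Tbx1+/- library (571 CPM). Ltbp2 was low in that type and library (10.8 CPM), high in PF/F progenitors (7.70 CPM) and immune nuclei (2.12 CPM) of the batch 2 Tbx1+/- library, where the other libraries had no UMI, and high in differentiated GABA interneurons of the batch 1 Tbx1+/- library (5.41 CPM). In the batch 2 Tbx1+/- library only 6.94% of 72 progenitor nuclei and 0.752% of 133 immune nuclei held an Ltbp2 UMI, so both values rest on very few counts.

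Barcodes with at least 1000 detected genes that the annotation leaves out, 24326 in the PTB and 4123 in the PF/F, also held the members. In the PTB they had 52.5 CPM of Tgfb1, 154 CPM of Tgfb2, 26.0 CPM of Tgfb3, 163 CPM of Tgfbr1, 159 CPM of Tgfbr2, 212 CPM of Tgfbr3, 192 CPM of Ltbp1 and 26.1 CPM of Ltbp2, pooled over 4 libraries. In the PF/F they had 5.76 CPM of Tgfb1, 43.4 CPM of Tgfb2, 5.12 CPM of Tgfb3, 78.3 CPM of Tgfbr1, 27.0 CPM of Tgfbr2, 31.9 CPM of Tgfbr3, 20.0 CPM of Ltbp1 and 3.59 CPM of Ltbp2.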

How the results depend on the processing

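The 8 members were called higher in the PTB, and 0 were called for genotype or interaction, under every alternative that was run. The fits for tissue and interaction were not rerun with other choices of nuclei. With the replicate block, members with an unadjusted p under 0.05 numbered 3 in the PTB and 5 in the PF/F. Of the further pathway genes, 0 were called without the block and 2 with it, Postn in CT (-0.81; 24 of 15889 genes called) and Tnc in meningeal nuclei (1.12; 24 of 10002). Leaving out a library gave 0 to 4 calls. Without the batch 1 WT PTB library there were 4 in osteoclasts (Col3a1, Thbs1, Col1a1, Bgn), among 206 of 13897 genes called. Without the batch 2 WT library Col1a1 was called in osteoblasts (33 of 16083 genes) and matured osteoblasts/osteocytes (24 of 11283), and without the batch 1 Tbx1+/- library Aspn in the latter (15 of 11020). The pairing by replicate number changed no call of a member.

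When a library was left out, 36 of the 56 member changes in PTB classes and 39 of the 62 in PF/F types turned sign in at least 1 fit, and none was called. Over the main fit and all alternatives, the change in all annotated PTB nuclei ran from -0.0675 to 0.27 for Tgfbr1, -0.0837 to 0.0509 for Tgfbr2 and -0.43 to 0.11 for Ltbp1. For Ltbp1 in CT it ran from -1.62 to 0.22 and turned without the batch 2 Tbx1+/- library. In the whole PF/F the change ran from -0.17 to 0.14 for Tgfb1 (0.0057 with nuclei of at least 2000 genes), -0.15 to 0.34 for Tgfbr2, -0.13 to 0.22 for Tgfbr3, -0.10 to 0.10 for Ltbp1 and -0.0119 to 0.27 for Ltbp2. The cause of these turns was not tested. With 2 pooled libraries per genotype, counting error in the rarer PF/F types and free RNA limit what could be seen.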

Other observations

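Among PTB barcodes outside the annotation, sorted by the marker list with the most UMIs (at least 3), the members were spread over cell types, some of which the PTB annotation does not hold. The osteoblast list led 18546 of the 24326, with 58.9 CPM of Tgfb1, 155 CPM of Tgfb2, 151 CPM of Tgfbr1 and 201 CPM of Ltbp1. That list holds Col1a1, whose lowest mean over the annotated PTB types was 2136 CPM. The part of free RNA in this sorting was not tested, so these barcodes cannot be taken as osteoblasts. The 453 barcodes led by immune markers had 149 CPM of Tgfb1, 234 CPM of Tgfbr1 and 418 CPM of Tgfbr2, pooled over 4 libraries. The 493 led by endothelial markers had 114 CPM of Tgfb1, 273 CPM of Tgfbr2 and 279 CPM of Tgfbr3. The 544 led by osteoclast markers had 1000.2 CPM of Tgfbr1 and 420 CPM of Tgfbr2, and the 267 led by the oligodendrocyte list had 558 CPM of Tgfbr3. These barcodes were sorted here by marker lists alone, so the values are descriptions.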
